A study of Mus musculus with 11 samples.

Results

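The pro-survival genes of the BCL2 family were read in mice that carry an inserted BCL2 gene under immunoglobulin control elements, and in wild type mice. The 7 genes, Bcl2, Bcl2l1, Bcl2l2, Mcl1, Bcl2a1a, Bcl2a1b and Bcl2a1d, were taken by gene symbol from the 10885 genes of the deposited table, and all 7 were found. Immunised mice of 3 genotypes were compared. KI mice (mice 5 and 6) carry a knock-in labelled Igk-BCL2, with BCL2 at the kappa light chain locus. Tg mice (mice 3 and 4) carry a transgene labelled 3'RR-BCL2, driven by the immunoglobulin heavy chain 3' regulatory region (3'RR), and Wt mice (mice 1 and 2) are wild type. Both insertions use immunoglobulin control elements, whose activity is known mainly from B lineage cells. Mice of each genotype received sheep red blood cells intraperitoneally over 3 months, and tissue was collected 1 month after the last injection; the sources used here give neither strain nor age. RNA came from unsorted, dissociated cells of lymph node (LN) and spleen. The 11 libraries were 2 KI, 2 Tg and 2 Wt of LN, and 2 KI, 1 Tg and 2 Wt of spleen; mouse 3 entered with LN alone.

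Proteins of this group hold mitochondria intact: they bind the BH3-only proteins that signal stress and the effectors BAX and BAK that would open the outer membrane. Lymphocyte subsets rely on different members. Resting T and naive B cells are known for BCL2, germinal centre B cells for low BCL2 and for MCL1, and plasma cells for MCL1. MCL1 protein turns over fast, and A1, the protein of the Bcl2a1 genes, is known as a product of NF-kB signalling in activated lymphocytes and myeloid cells. The labels do not say which species the inserted BCL2 came from, and the signal of Bcl2 here is that assigned to the mouse gene. Whether it includes reads of the insertion is unknown, so the targeting could not be checked through it.

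Depth was between 11128568 and 24110325 recovered reads per library. Replicates of KI lay further apart than the rest: over all genes, the SD of the log2 difference between the 2 mice was 0.918 in LN KI, 0.449 in LN Tg and 0.493 in LN Wt, and 0.903 in spleen KI and 0.451 in spleen Wt. By Xist and Ddx3y, Wt mouse 1 was female and the other 5 mice were male. Genotype and any difference in breeding or handling cannot be told apart. T cell and B cell markers were found in every library. A signal per unit of tissue RNA cannot tell fewer cells of a type from less RNA per cell. The scale throughout is the authors' normalised signal, and differences are log2 differences of signal + 1 with the standard error of a limma-trend fit over all genes. A gene was called at a Benjamini-Hochberg adjusted p under 0.05.

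The 3 Bcl2a1 genes are near copies of each other, which bears on every value given for them. They lie on chromosome 9, and their coding sequences, each of 519 bases, differ at 12 positions. Identity was 97.9% between Bcl2a1a and Bcl2a1b, 98.7% between Bcl2a1a and Bcl2a1d and 98.8% between Bcl2a1b and Bcl2a1d. The first 90 coding bases hold 6 of the 12 positions and are shown for that reason, 5′ to 3′ from the start codon, from GENCODE M21 transcripts (GRCm38), with the differing positions in capitals.
Bcl2a1a: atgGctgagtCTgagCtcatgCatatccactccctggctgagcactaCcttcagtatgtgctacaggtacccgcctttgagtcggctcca
Bcl2a1b: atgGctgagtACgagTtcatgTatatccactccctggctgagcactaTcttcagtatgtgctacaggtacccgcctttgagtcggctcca
Bcl2a1d: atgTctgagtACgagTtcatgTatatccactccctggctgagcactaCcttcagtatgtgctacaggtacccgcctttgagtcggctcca
Of all 100-base windows of their transcripts, 43.5% in Bcl2a1a, 56.8% in Bcl2a1b and 54.7% in Bcl2a1d also occurred, letter for letter, in another gene. No such window was found in Mcl1 (chromosome 3) or Bcl2l1 (chromosome 2), while 4.4% were found in Bcl2 (chromosome 1) and 10.9% in Bcl2l2 (chromosome 14). The shared windows of Bcl2 and Bcl2l2 lay in D630008O14Rik, which overlaps Bcl2 on the opposite strand, and in Gm20521, which overlaps Bcl2l2 on the same strand. Neither is in the deposited table, and the strand setting of the counting was not given, so reads of these overlaps could not be assigned. Bcl2a1b has the widest overlap, with 49.1% of its exon bases shared with Gm29094 on the same strand, and all 3 copies share windows with Gm29094; of windows of 50 bases, some also occurred in Bcl2a1c. Gm29094 is not in the table either. Splits among the 3 Bcl2a1 genes are thus uncertain, and their sum, given below as well, does not include reads assigned to Gm29094 or Bcl2a1c. Whether reads that match several of these genes were counted at all is unknown, so they may be missing from the sum.

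Mcl1 had the highest level and made up most of the group in every library. Per kilobase of exon, it took between 79.0% and 86.4% of the summed signal of the 7 genes, with a median of 84.8% over the 11 libraries. Bcl2 took between 3.31% and 6.52% and Bcl2a1d between 3.46% and 6.73%, so neither stood above the other throughout. Bcl2a1b took 1.82% to 3.69%, Bcl2a1a 0.863% to 3.76%, Bcl2l1 1.01% to 1.81% and Bcl2l2 0.391% to 1.27%. The order of the medians was Mcl1, Bcl2 (5.05%), Bcl2a1d (4.49%), Bcl2a1b (2.30%), Bcl2l1 (1.35%), Bcl2a1a (1.29%) and Bcl2l2 (0.602%), and below Mcl1 the ranges of neighbours in this order overlapped, except those of Bcl2a1b and Bcl2l1, which adjoined. Full exon lengths were used, with no correction for sequence shared with other genes. The place of the Bcl2a1 genes in this order is thus uncertain. The share of Bcl2 was 3.64% and 5.25% in LN KI, 5.05% and 6.15% in LN Tg, and 6.46% and 6.52% in LN Wt. In spleen it was 3.31% and 3.53% in KI, 4.33% in Tg, and 5.75% and 4.96% in Wt. In both tissues the KI shares lay below the Wt shares without overlap.

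**Figure D1:**
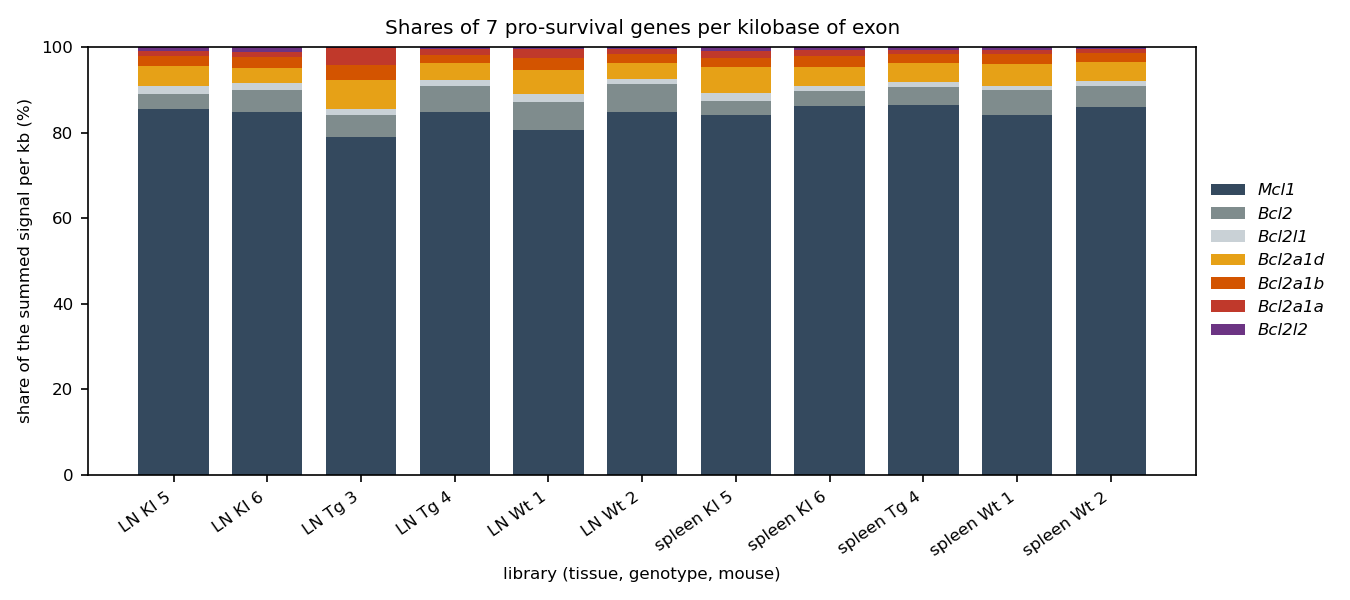
Stacked bars give the share (%) of each of 7 pro-survival genes in their summed signal per kilobase of exon, 1 bar per library, grouped by tissue and genotype. Mcl1 fills between 79.0% and 86.4% of every bar, and the segment of Bcl2 is thinner in the KI bars than in the Wt bars of the same tissue.

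Bcl2l2 and the 3 Bcl2a1 genes were near the floor of the table. Each of its genes reached a normalised signal of at least 109.3 in 1 or more libraries; Bcl2a1a and Bcl2a1b did so in 1 library alone, LN of Tg mouse 3, Bcl2l2 in 7 libraries and Bcl2a1d in 10. Bcl2a1a and Bcl2a1b are thus present in the table through a single library. Mean signal was above that of 98.6% of all genes for Mcl1 and 82.3% for Bcl2, against 27.4% for Bcl2l1, 18.1% for Bcl2a1d, 11.8% for Bcl2l2, 5.3% for Bcl2a1b and 1.4% for Bcl2a1a, before any correction for length.

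**Figure D2:**
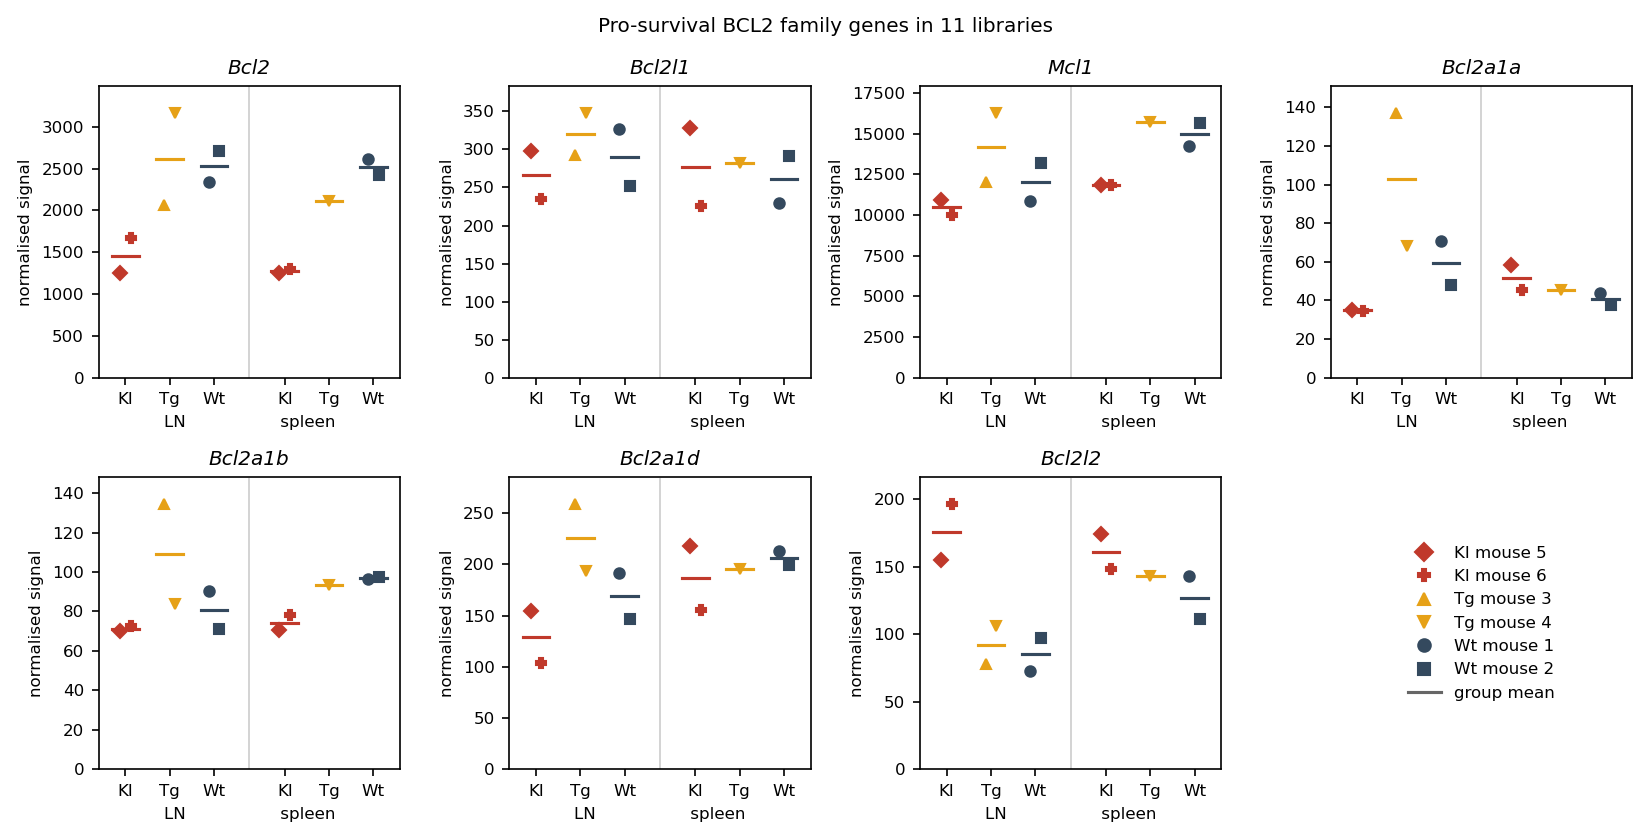
Normalised signal (linear axis from 0) of the 7 genes, 1 panel each, with 1 point per library and a line at the group mean of KI, Tg and Wt in LN and spleen; symbols mark the mouse. Bcl2 lies between 1246 and 1664 in the 4 KI libraries and at or above 2065 in the other 7.

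Bcl2 was lower in KI mice than in Wt mice in both tissues. In LN its normalised signal was 1246 and 1664 in KI, 2065 and 3171 in Tg, and 2338 and 2716 in Wt. In spleen it was 1249 and 1299 in KI, 2109 in Tg, and 2611 and 2427 in Wt. Each KI library was below each Tg and Wt library of its tissue, while Tg and Wt overlapped in LN. Means were 1455 ± 295.9 in LN KI, 2618 ± 782 in LN Tg and 2527 ± 267.3 in LN Wt (SD, n = 2 each), and 1274 ± 35.6 in spleen KI and 2519 ± 130.8 in spleen Wt (SD, n = 2 each). The KI minus Wt difference was -0.81 ± 0.20 in LN (limma adjusted p = 0.0152) and -0.98 ± 0.20 in spleen (limma adjusted p = 0.0110), that is 0.571 and 0.506 of Wt. The change did not differ detectably between tissues: the interaction was 0.18 ± 0.28 (limma adjusted p = 0.843).

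The 2 calls rest on few animals. In spleen the adjusted p was between 0.0537 and 0.0758 when any 1 of the 4 KI or Wt libraries was left out, with differences between -1.04 and -0.93. In LN it was 0.111 without KI mouse 5 (difference -0.60) and 0.0952 without Wt mouse 2 (difference -0.70), and edgeR on recovered LN reads gave -0.79 with an adjusted p of 0.0627. Leaving out both tissues of mouse 1, the female, gave -0.92 in LN (limma adjusted p = 0.0639) and -0.93 in spleen (limma adjusted p = 0.0935).

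T cell markers moved with Bcl2 between genotypes. Of 15 measured markers, 14 fell in LN KI against LN Wt and 12 in spleen KI against spleen Wt. Their summed signal was 42384 and 54174 in LN KI against 102102 and 94520 in LN Wt, and 23828 and 25564 in spleen KI against 48361 and 50599 in spleen Wt; no marker was at 0. Bcl2 amounted to 2.94% and 3.07% of that sum in LN KI against 2.29% and 2.87% in LN Wt, and to 5.24% and 5.08% in spleen KI against 5.40% and 4.80% in spleen Wt. Relative to T cell markers, then, Bcl2 in KI lay above Wt in LN and within the range of Wt in spleen. Relative to 11 B cell markers it lay below Wt in both tissues, at 0.600% and 0.996% in LN KI against 1.55% and 1.41% in LN Wt, and 0.493% and 0.457% in spleen KI against 1.01% in each spleen Wt library. Those 11 markers did not move as 1: in KI against Wt, 5 rose and 2 fell in LN, and 3 rose and 1 fell in spleen. Germinal centre B cell markers, of which 8 of 9 rose in LN and 4 of 9 in spleen, summed to 23478 and 18248 in LN KI against 3907 and 3772 in LN Wt, and to 8377 and 6149 in spleen KI against 3912 and 4172 in spleen Wt. The part of these cell types in the Bcl2 difference was not tested.

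Between tissues, Bcl2 and the T cell markers did not move together. In Wt mice all 15 T cell markers were higher in LN than in spleen at an adjusted p under 0.05, with a median difference of 0.94, while Bcl2 differed by 0.00 ± 0.20 (limma adjusted p = 0.997). In KI mice 14 of the 15 were higher in LN, with a median of 0.97, and Bcl2 differed by 0.18 ± 0.20 (limma adjusted p = 0.714). Of 11 B cell markers, 7 were called lower in LN than in spleen in Wt mice (median -0.63) and 6 in KI mice (median -0.59). None of them was called higher. Of all genes, 9.38% were called between tissues in Wt and 9.27% in KI. The part of T cells or B cells in these Bcl2 values was not tested.

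**Figure D3:**
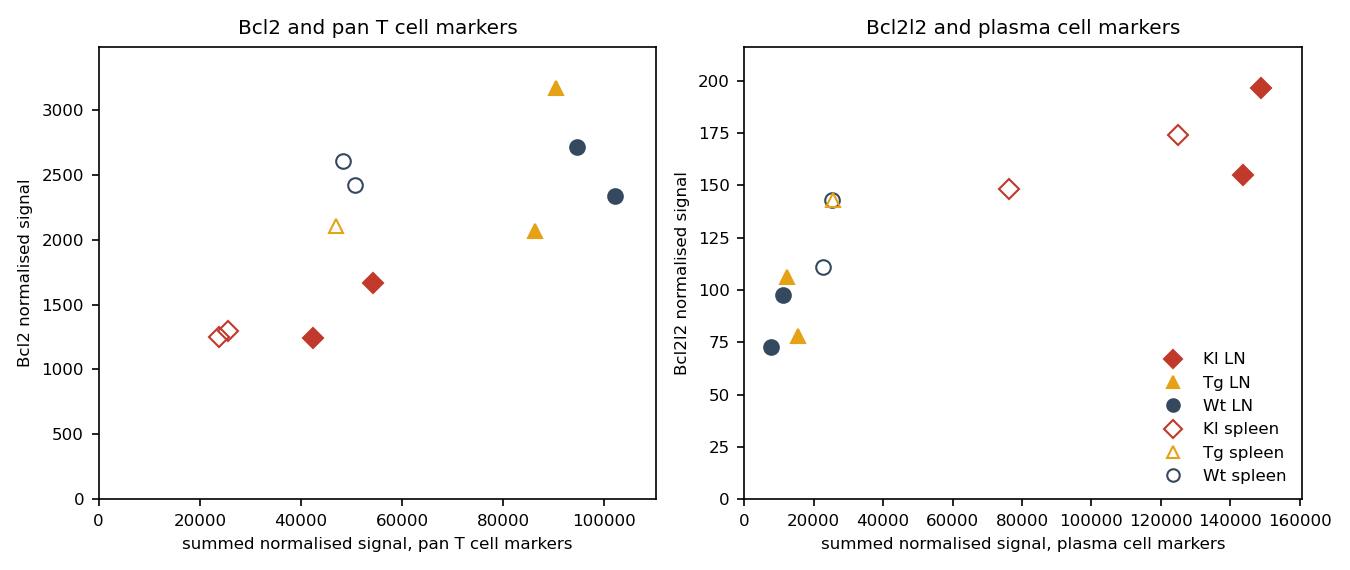
Each point is a library (diamonds KI, triangles Tg, circles Wt; filled LN, open spleen): left, Bcl2 signal against the summed signal of 15 T cell markers; right, Bcl2l2 signal against that of 9 plasma cell markers. The KI points lie lowest in Bcl2, and the LN points lie to the right of the spleen points of their genotype; on the right, the Tg spleen point and 1 Wt spleen point nearly coincide at 143.0.

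Bcl2l1, which encodes BCL-xL, showed no called difference between any of the groups compared. In LN its signal was 297.4 and 234.5 in KI, 293.0 and 348.6 in Tg, and 327.4 and 251.6 in Wt. In spleen it was 328.5 and 225.0 in KI, 282.7 in Tg, and 229.3 and 291.8 in Wt. KI and Wt overlapped in both tissues, at -0.12 ± 0.23 in LN (limma adjusted p = 0.753) and 0.07 ± 0.23 in spleen (limma adjusted p = 0.856). The direction of these differences turned with 1 library left out, as the range in LN was -0.31 to 0.07 and in spleen -0.20 to 0.34. Bcl2 relative to Bcl2l1, a ratio of normalised signals within a library, was 4.19 and 7.10 in LN KI against 7.14 and 10.8 in LN Wt, and 3.8 and 5.77 in spleen KI against 11.4 and 8.32 in spleen Wt.

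Bcl2l2, which encodes BCL-w, rose in LN of KI mice. In LN its signal was 154.8 and 196.5 in KI, 77.84 and 106.3 in Tg, and 72.57 and 97.36 in Wt. In spleen it was 174.1 and 148.3 in KI, 143.0 in Tg, and 143.0 and 110.9 in Wt. LN KI lay above LN Tg and LN Wt without overlap, and the spleen libraries of KI lay above those of Wt by a narrower gap. The KI minus Wt difference was 1.04 ± 0.26 in LN, or 2.06-fold (limma adjusted p = 0.0136), and 0.35 ± 0.26 in spleen (limma adjusted p = 0.387). That the tissues differ was not shown, with an interaction of 0.69 ± 0.37 (limma adjusted p = 0.429). In LN the adjusted p was 0.0975 without KI mouse 6 (difference 0.87), 0.0895 without Wt mouse 1 (difference 0.83) and 0.0600 after quantile normalisation (difference 0.76).

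Plasma cell markers moved with Bcl2l2. In LN, 8 of 9 rose in KI against Wt, and their summed signal was 143835 and 148793 in KI, 15480 and 12239 in Tg, and 7569 and 11107 in Wt. In spleen, 6 of 9 rose and 1 fell, with sums of 125063 and 76367 in KI, 25606 in Tg, and 25314 and 22543 in Wt; no marker was at 0. Their part in the Bcl2l2 difference was not tested. Because Bcl2 was lower where Bcl2l2 was higher, the ratio of Bcl2l2 to Bcl2 signal separated the KI libraries from all others: 0.124 and 0.118 in LN KI, 0.0377 and 0.0335 in LN Tg and 0.0310 and 0.0358 in LN Wt, and 0.139 and 0.114 in spleen KI, 0.0678 in spleen Tg and 0.0547 and 0.0457 in spleen Wt. This ratio does not depend on the scaling of a library, but it says nothing of the level of one protein against the other.

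Mcl1, the labile member on which germinal centre B cells and plasma cells depend, did not pass the test in KI mice. In LN its signal was 10915 and 10030 in KI, 12040 and 16313 in Tg, and 10896 and 13197 in Wt. In spleen it was 11854 and 11828 in KI, 15713 in Tg, and 14273 and 15689 in Wt. KI and Wt overlapped in LN, while in spleen both KI libraries lay below both Wt libraries. The KI minus Wt difference was -0.20 ± 0.15 in LN (limma adjusted p = 0.387) and -0.34 ± 0.15 in spleen (limma adjusted p = 0.157). A fit of the KI and Wt spleen libraries alone gave the same -0.34 with an adjusted p of 0.0424. The ratio of Bcl2 to Mcl1 signal was 0.114 and 0.166 in LN KI against 0.215 and 0.206 in LN Wt, and 0.105 and 0.11 in spleen KI against 0.183 and 0.155 in spleen Wt.

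Immediate early genes, which mark recent stimulation or handling of cells and share fast induction with Mcl1, were lower in KI spleens too. Of the 18 measured, 14 fell in spleen and 8 in LN in KI against Wt, and their summed signal was 60288 and 58741 in spleen KI, 172930 in spleen Tg, and 200929 and 159625 in spleen Wt. In LN the sum was 75076 and 53085 in KI, 82075 and 145193 in Tg, and 96963 and 134099 in Wt. Examples are Atf3, a stress-induced transcription factor, at -6.24 ± 0.51 in spleen (limma adjusted p = 0.000889) and -3.57 ± 0.51 in LN (limma adjusted p = 0.00321), and Nr4a1, a gene induced by antigen receptor signals, at -3.59 ± 0.35 in spleen (limma adjusted p = 0.00160) and -2.03 ± 0.35 in LN (limma adjusted p = 0.00649). Their part in the Mcl1 values was not tested. Of 4 measured regulators of MCL1 protein turnover, Fbxw7, a ubiquitin ligase subunit, rose in LN (0.60 ± 0.20, limma adjusted p = 0.0496), and none was called in spleen, where 0.21 ± 0.20 was found for Fbxw7 (limma adjusted p = 0.496).

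The 3 Bcl2a1 genes, which encode A1, were on average lowest in LN KI and highest in LN Tg. For Bcl2a1a and Bcl2a1b the place of LN Tg is partly fixed by the table, which holds them through LN of Tg mouse 3 alone. In LN, Bcl2a1a had 35.12 and 34.48 in KI, 137.3 and 68.36 in Tg, and 70.95 and 48.13 in Wt. Bcl2a1b had 70.24 and 72.40 in KI, 134.5 and 83.55 in Tg, and 90.30 and 71.11 in Wt. Bcl2a1d had 154.8 and 103.4 in KI, 259.0 and 193.3 in Tg, and 191.9 and 146.6 in Wt. KI lay below Tg without overlap in all 3 copies, and below Wt without overlap in Bcl2a1a alone. Libraries of KI and Wt in LN did not overlap for 66.8% of all genes. That share was not computed for KI and Tg, and nothing is read from these counts. Tg mouse 3 was the highest LN library in each copy.

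In spleen the copies were closer between genotypes. Bcl2a1a had 58.32 and 45.14 in KI, 45.52 in Tg, and 43.63 and 37.75 in Wt. Bcl2a1b had 70.32 and 78.10 in KI, 93.44 in Tg, and 96.55 and 97.53 in Wt. Bcl2a1d had 217.8 and 155.5 in KI, 195.7 in Tg, and 213.5 and 199.0 in Wt. KI lay above Wt in Bcl2a1a, below it in Bcl2a1b and on both sides of it in Bcl2a1d, and none of the 3 was called. Counts behind Bcl2a1a were small, between 30 and 97 reads per library; the 95% Poisson interval was 20.2 to 42.8 around 30 reads in LN KI mouse 6 and 78.7 to 118.3 around 97 reads in LN Tg mouse 3. Such intervals cover counting error only.

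Against Wt, the KI difference of Bcl2a1a was -0.73 ± 0.41 in LN (limma adjusted p = 0.216) and 0.33 ± 0.41 in spleen (limma adjusted p = 0.609). These opposite signs gave an interaction of -1.06 ± 0.57 that did not pass (limma adjusted p = 0.437). Bcl2a1b and Bcl2a1d were at -0.17 ± 0.29 and -0.40 ± 0.26 in LN, and at -0.38 ± 0.29 and -0.16 ± 0.26 in spleen, with adjusted p-values between 0.291 and 0.719. Signals were also summed over the 3 copies, an alternative chosen after seeing the data that does not depend on how counted reads fell among them. In LN the sum was 260.1 and 210.3 in KI, 530.7 and 345.2 in Tg, and 353.2 and 265.8 in Wt. In spleen the sum was 346.5 and 278.7 in KI, 334.6 in Tg, and 353.7 and 334.3 in Wt. The sum differed by -0.39 ± 0.23 for KI minus Wt in LN (limma adjusted p = 0.244) and by -0.15 ± 0.23 in spleen (limma adjusted p = 0.695).

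Over the whole group, 2 of the 7 genes were called in KI against Wt in LN, 1 lower and 1 higher, where 26.0% of all genes were called in either direction. In spleen 1 of 7 was called, where 16.8% of all genes were. Neither count stands apart from its background. Libraries of KI and Wt did not overlap for 3 of the 7 in LN, against 66.8% of all genes, and for 5 of the 7 in spleen, against 66.3% of all genes. The median difference of the members was -0.20 in LN and -0.16 in spleen, against -0.02 and 0.01 over all genes. No member was called in the interaction of genotype and tissue, in which 0.955% of all genes were; at an unadjusted p under 0.05 there were also 0.

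**Figure D4:**
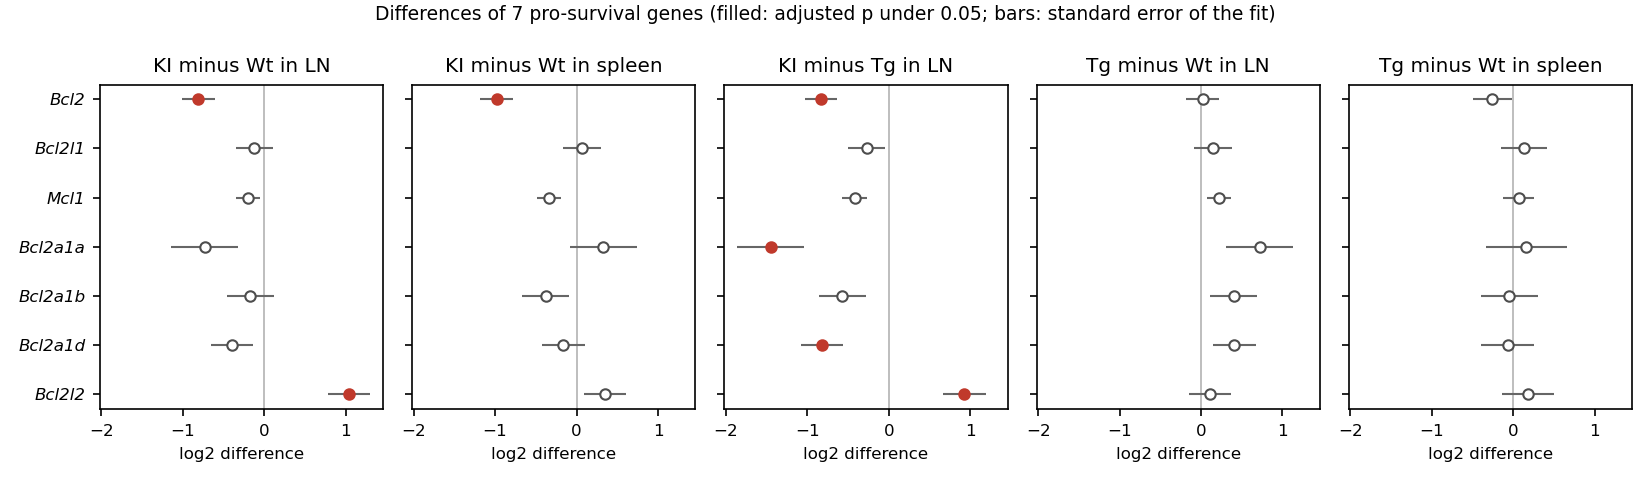
Points give the log2 difference of each of the 7 genes in 5 comparisons, with horizontal bars for the standard error of the fit; filled points have an adjusted p under 0.05. Bcl2 is at -0.81 and -0.98 in KI minus Wt, and at 0.02 in Tg minus Wt of LN.

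The transgene under the 3'RR left all 7 genes without a called difference from Wt. In LN, limma called 0 members and 0% of all genes, and 0 members had an unadjusted p under 0.05. On recovered reads, edgeR and DESeq2 also called 0 members, while over all genes edgeR called 0 and DESeq2 called 28. Bcl2 differed by 0.02 ± 0.20 (limma adjusted p = 0.999), and the differences of the others were between 0.11 ± 0.26 for Bcl2l2 and 0.72 ± 0.41 for Bcl2a1a. In spleen, where the single Tg library borrows its spread from the groups with replicates, limma called 0 members and 0% of all genes, with 0 members at an unadjusted p under 0.05. Bcl2 there was at -0.26 ± 0.24 and Mcl1 at 0.07 ± 0.19 (limma adjusted p = 1 for each).

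Set directly against each other in LN, the 2 insertions differed in Bcl2 and Bcl2a1d, lower in KI than in Tg, and in Bcl2l2, higher in KI. Bcl2a1a also passed the threshold, but it is in the table through LN of Tg mouse 3 alone, so that its difference was conditioned on a high Tg value and is given as a description. With it 4 of the 7 were called, where 26.7% of all genes were, and nothing is read from that count. KI minus Tg was -0.83 ± 0.20 for Bcl2 (limma adjusted p = 0.0142), -1.45 ± 0.41 for Bcl2a1a (limma adjusted p = 0.0232) and -0.82 ± 0.26 for Bcl2a1d (limma adjusted p = 0.0409). For Bcl2l2 it was 0.93 ± 0.26 (limma adjusted p = 0.0235). Mcl1 at -0.42 ± 0.15 (limma adjusted p = 0.0656), Bcl2a1b at -0.57 ± 0.29 (limma adjusted p = 0.170) and Bcl2l1 at -0.27 ± 0.23 (limma adjusted p = 0.416) were not called. Bcl2a1b, too, is in the table through Tg mouse 3 alone. The summed Bcl2a1 copies, which include those 2, differed by -0.87 ± 0.23 (limma adjusted p = 0.0180). That sum was chosen after seeing the data and is partly conditioned on a high Tg value, so it too is given as a description. This comparison shares the KI libraries with KI against Wt.

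These 4 calls depended on single libraries and on the fit. Without Tg mouse 3, Bcl2a1a was at -0.95 (limma adjusted p = 0.160), Bcl2a1d at -0.61 (limma adjusted p = 0.177) and Bcl2l2 at 0.71 (limma adjusted p = 0.11), while Mcl1 was called at -0.64 (limma adjusted p = 0.0112). Without KI mouse 5, Bcl2 was at -0.62 (limma adjusted p = 0.101), Bcl2a1a at -1.46 (limma adjusted p = 0.0932) and Bcl2l2 at 1.1 (limma adjusted p = 0.0538). Without KI mouse 6, Bcl2a1a was at -1.44 (limma adjusted p = 0.0829), Bcl2a1d at -0.53 (limma adjusted p = 0.251) and Bcl2l2 at 0.76 (limma adjusted p = 0.142). Without Tg mouse 4, Bcl2 was at -0.52 (limma adjusted p = 0.0513). Bcl2a1d kept its difference of -0.82 but not its call without either Wt spleen library, at 0.0598 and 0.0593, and was also not called by DESeq2 on recovered reads (-0.81, adjusted p 0.0604) or without immunoglobulin and haemoglobin genes (-0.73, adjusted p 0.0622). No member was called by edgeR on recovered reads (adjusted p 0.0505 to 0.0929 for the 4) or in a fit of the KI and Tg LN libraries alone (0.0618 to 0.0993), with differences of the same sign.

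NF-kB subunit genes and macrophage markers were lower in LN of KI than of Tg mice. Of the Bcl2a1 genes, Bcl2a1d was lower too, though not called in every fit. Bcl2a1a and Bcl2a1b are in the table through Tg mouse 3 alone, which favours that direction in advance. Dendritic cell markers gave no single direction, and no neutrophil marker was called. Of all genes, 26.7% were called in KI against Tg in LN, and the counts of each list here stand against that share. All 5 NF-kB subunit genes fell in KI against Tg, led by Relb at -0.98 ± 0.11 (limma adjusted p = 0.000296) and Nfkb2 at -0.85 ± 0.12 (limma adjusted p = 0.000928), both of the noncanonical pathway. Birc3, an inhibitor of apoptosis that NF-kB is known to induce, fell by 0.84 ± 0.14 on the log2 scale (limma adjusted p = 0.00202). Of 12 macrophage markers 11 fell, and their summed signal was 859.4 and 1023 in LN KI, 2768 and 2892 in LN Tg, and 2329 and 1698 in LN Wt. Of 7 dendritic cell markers 2 fell and 5 were not called, with a median of 0.31, although the list summed to 4967 and 7537 in LN KI, 24923 and 20702 in LN Tg, and 13346 and 21033 in LN Wt. Neutrophil markers, none of 12 called, had a median of 1.89. They summed to 662.9 and 551.7 in LN KI and 175.5 and 262.5 in LN Tg. Ly6g was at 0 in KI mouse 5 and Tg mouse 3, and Elane at 0 in Tg mouse 4. The part of these cells and genes in the Bcl2a1 values was not tested.

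Between LN and spleen of the same genotype, no member was called. In Wt mice 9.38% of all genes were called and 0 of the 7 members, 1 of which, Bcl2l2, had an unadjusted p under 0.05 (-0.58 ± 0.26, limma adjusted p = 0.213). Mcl1 was at -0.32 ± 0.15 (limma adjusted p = 0.244), with LN below spleen in each Wt mouse. In KI mice 9.27% of all genes were called and 0 members, 0 of them at an unadjusted p under 0.05, with differences from -0.55 ± 0.41 for Bcl2a1a to 0.18 ± 0.20 for Bcl2. In spleen, neutrophil markers summed to 2489 and 7498 in KI, 45511 in Tg, and 6872 and 52730 in Wt. Over the same Wt spleens the mean ± SD was 206.3 ± 10.3 for Bcl2a1d, 97.0 ± 0.695 for Bcl2a1b and 40.7 ± 4.16 for Bcl2a1a (n = 2). The part of neutrophils in the Bcl2a1 values was not tested.

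Genes that act around the pro-survival proteins were read from lists chosen with earlier results of these data known. Over all 10885 genes, 1502 were called higher and 1331 lower in KI against Wt in LN (26.0% in all), and 830 higher and 1003 lower in spleen (16.8%); the counts of each list, those of the immediate early genes and cell markers above included, stand against that share. Among the BH3-only genes, whose products bind the pro-survival proteins, 3 of 6 measured rose and none fell in KI against Wt in LN, where the list's median was 0.33. Bmf rose by 1.97 ± 0.25 (limma adjusted p = 0.000891), Bcl2l11, which encodes BIM, by 0.98 ± 0.16 (limma adjusted p = 0.00133) and Bid by 0.42 ± 0.11 (limma adjusted p = 0.0201). In spleen 1 of 6 rose and 1 fell, with a median of -0.06: Bmf rose by 2.0 ± 0.25 (limma adjusted p = 0.00193), and Pmaip1, which encodes NOXA, an antagonist of MCL1, was at -2.41 ± 0.33 (limma adjusted p = 0.00490). The signal of Bcl2l11 was 2489 and 2393 in LN KI, 1395 and 1746 in LN Tg, and 1045 and 1459 in LN Wt. Relative to Bcl2 it was 2 and 1.44 in LN KI, 0.676 and 0.551 in LN Tg and 0.447 and 0.537 in LN Wt, and 1.69 and 1.55 in spleen KI, 0.744 in spleen Tg and 0.592 and 0.589 in spleen Wt. These ratios of signals, not corrected for length, separated the KI libraries from the rest in both tissues. That follows from Bcl2l11 lying higher and Bcl2 lower in KI, and the ratios were not tested.

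The effector genes Bax and Bak1 did not pass the test. In LN, KI minus Wt was -0.09 ± 0.12 for Bax (limma adjusted p = 0.630) and 0.04 ± 0.14 for Bak1 (limma adjusted p = 0.881); in spleen it was -0.14 ± 0.12 for Bax (limma adjusted p = 0.460) and -0.37 ± 0.14 for Bak1 (limma adjusted p = 0.0962). Of 11 genes of the apoptosome, caspases and their inhibitors, 1 rose and 1 fell in each tissue. Casp9, the initiator caspase of the mitochondrial pathway, had 860.5 and 750.5 in LN KI against 406.4 and 359.9 in LN Wt, and 827.6 and 872.7 in spleen KI against 509.7 and 508.1 in spleen Wt. It rose by 1.07 ± 0.12 in LN (limma adjusted p = 0.000232) and 0.74 ± 0.12 in spleen (limma adjusted p = 0.00392). Birc3 fell by 0.69 ± 0.14 in LN (limma adjusted p = 0.00534) and by 0.63 ± 0.14 in spleen (limma adjusted p = 0.0147).

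NF-kB subunit genes were lower in KI than in Wt, with 4 of 5 fallen in LN and 2 of 5 in spleen. Nfkb2 fell by 0.84 ± 0.12 in LN (limma adjusted p = 0.000877) and by 0.71 ± 0.12 in spleen (limma adjusted p = 0.00479), and Relb fell by 0.74 ± 0.11 in LN (limma adjusted p = 0.00113). Of 10 receptors for survival cytokines, 3 rose and 4 fell in LN, and 2 rose and 3 fell in spleen. Tnfrsf17, the plasma cell receptor BCMA, rose by 3.66 ± 0.46 in LN (limma adjusted p = 0.000383) and 2.06 ± 0.46 in spleen (limma adjusted p = 0.0144). Tnfrsf13b, the B cell receptor TACI, rose by 1.02 ± 0.12 in LN (limma adjusted p = 0.000216) and 0.68 ± 0.12 in spleen (limma adjusted p = 0.00428). Il7r, which T cells use to keep BCL2 high, was at -1.16 ± 0.19 in LN (limma adjusted p = 0.00193) and -1.12 ± 0.19 in spleen (limma adjusted p = 0.00474). Il2rg, the shared cytokine receptor chain, was at -0.75 ± 0.10 in LN (limma adjusted p = 0.000569) and -0.46 ± 0.10 in spleen (limma adjusted p = 0.0134). In Tg against Wt in LN limma called no gene of these lists, as it called none among all genes.

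Across the 11 libraries the members did not follow a single pattern. Pearson r of log2 values, given without a test because the libraries share mice and groups, was 0.65 between Bcl2 and Mcl1, -0.60 between Bcl2 and Bcl2l2, and 0.14 between Bcl2 and Bcl2l1. The 3 Bcl2a1 copies, which share sequence, had r of 0.66 to 0.70 with each other. Among 10200 genes searched, those most like Bcl2 were Tusc3 (r = 0.964), Abcc1 (r = 0.963) and Cd69 (r = 0.961), the early activation antigen. Cd69 had 700.2 and 1211 in LN KI, 2589 and 4021 in LN Tg, and 2772 and 4928 in LN Wt, and 607.2 and 406.2 in spleen KI, 2780 in spleen Tg, and 4340 and 3760 in spleen Wt. Most like Mcl1 were Ptpn1 (r = 0.942), Dgat1 (r = 0.940) and Zfp703 (r = 0.930). Most like Bcl2l2 were Cacna1e (r = 0.974), Herpud1 (r = 0.965), a gene of protein quality control in the endoplasmic reticulum, and Chd9 (r = 0.949). Herpud1 had 4713 and 5320 in LN KI, 2168 and 2944 in LN Tg, and 1692 and 2371 in LN Wt. Bcl2l1 had no gene closer than Mrps25 (r = 0.823), followed by Sars2 (r = 0.786) and Tecr (r = 0.783). The nearest gene was Eno3 (r = 0.939) for Bcl2a1a and Tatdn3 (r = 0.926) for Bcl2a1d.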

How the data were processed

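RNA-seq of 11 libraries was used as deposited. The deposited table holds a normalised signal per gene, read counts that the authors divided by 1 factor per library, as judged from the values. The submitters' processing notes name FastQC 0.11.5, STAR 2.5, featureCounts, Subread 1.4.6, DESeq2 1.26.0 and GRCm39, with no role given. Library values summed to between 17217404 and 18046250. Dividing each library by its own smallest step gave whole numbers for 100.0% of values, within 0.05 reads, and these are the recovered reads; low values sufficed for count tests in LN alone.

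Planned for counts, edgeR was replaced by the planned substitute for normalised values: limma-trend (limma 3.58.1 under R 4.3.3), applied to log2(value + 1) with 6 group means over 11 libraries, p adjusted over 10885 genes. The procedure was tested on simulated data with the same spread between replicates in every group. KI replicates lay further apart than the rest, so that test does not show how the procedure behaves in KI comparisons. Members and lists were chosen with earlier results of these data known. Named genes were all members, up to 4 called genes of smallest p per pathway list (or up to 2 uncalled), and the 3 genes of highest correlation with each member; only the nearest is named for Bcl2a1a and Bcl2a1d, those of Bcl2a1b are not reported here, and further list genes were left out for space. Alternatives were pseudocounts, a filter, other scalings, other fits, edgeR 4.0.16 and DESeq2 1.42.0 on LN reads, a replicate block (statmod 1.5.0) and leaving out libraries or mice. Replicate numbers mark the same mouse in LN and spleen: deviations from the group mean correlated at 0.900 in KI and 0.403 in Wt, with a consensus of 0.0168 over genes. Exon lengths, overlaps and sequences came from GENCODE M21, matched by gene identifier; it is of GRCm38, so no positions are given.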

Additional observations from a re-analysis of the deposited data

How the results depend on the processing

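Counts of members called moved as follows. KI against Wt in LN had 2 called, with 1 under quantile normalisation, 1 by edgeR, and 0 to 2 with a library or mouse left out. KI against Wt in spleen had 1, with 2 in a fit of the groups compared and 0 to 1 with a library or mouse left out. KI against Tg in LN had 4, with 2 under quantile normalisation, 0 in a fit of the groups compared, 0 by edgeR, 3 by DESeq2 and 3 without immunoglobulin and haemoglobin genes (Bcl2a1d lost in each), and 1 to 4 with a library or mouse left out. LN against spleen in Wt had 0, with 1 under quantile normalisation (Bcl2a1a, 1.61, adjusted p 0.0494). With mouse as a random replicate block the counts were 2, 1 and 4 in these KI comparisons and 0 in each other comparison. Its consensus correlation was 0.0168, so this fit was nearly the main one and is no separate check of the counts. A fixed term for mouse absorbs genotype and gave no KI against Wt or KI against Tg comparison. With that term, 0 members were called in the interaction and between LN and spleen in Wt and in KI. The filter on mean signal left out Bcl2a1a and Bcl2a1b.

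Directions that turned belonged to differences that were not called. Removing immunoglobulin and haemoglobin genes put the median of all genes in KI minus Wt of LN at 0.107, against -0.02 before, and Bcl2l1 there became 0.01, below that median. LN minus spleen in Wt turned for Bcl2 under TMM scaling (-0.01), that removal (-0.04) and quantile normalisation (-0.02), and under quantile normalisation Bcl2a1b became 0.08 there and 0.09 in KI, while Tg minus Wt of Mcl1 in spleen became -0.00. With a library or mouse left out, KI minus Wt spanned -0.31 to 0.07 for Bcl2l1 and -0.34 to 0.00 for Bcl2a1b in LN, and -0.20 to 0.34 for Bcl2l1 and -0.40 to 0.08 for Bcl2a1d in spleen. Tg minus Wt spanned -0.29 to 0.33 for Bcl2, -0.03 to 0.34 for Bcl2l1 and -0.11 to 0.34 for Bcl2l2 in LN, and -0.05 to 0.30 for Bcl2l1 and -0.00 to 0.36 for Bcl2l2 in spleen. The interaction spanned -0.03 to 0.38 for Bcl2, -0.55 to 0.17 for Bcl2l1 and -0.53 to 0.05 for Bcl2a1d. LN minus spleen spanned -0.16 to 0.16 for Bcl2 and -0.21 to 0.51 for Bcl2l1 in Wt, and -0.03 to 0.39 for Bcl2, -0.31 to 0.23 for Bcl2l1, -0.13 to 0.02 for Bcl2a1b and -0.17 to 0.40 for Bcl2l2 in KI. The cause was not tested.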

Other observations

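Of the other BCL2 relatives, Bcl2l14, a relative whose part in apoptosis is less settled, had 37.3 and 48.3 in LN KI, 324.1 and 184.8 in LN Tg, and 125.8 and 130.2 in LN Wt. It reached the table's minimum of 109.3 in LN Tg and LN Wt alone, so that its KI differences in LN were conditioned on high values there. These were -1.57 ± 0.34 for KI minus Wt (limma adjusted p = 0.00678) and -2.50 ± 0.34 for KI minus Tg (limma adjusted p = 0.000625). In spleen Bcl2l14 had 25.7 and 22.9 in KI, 39.1 in Tg, and 37.1 and 37.0 in Wt, at -0.59 ± 0.34 for KI minus Wt (limma adjusted p = 0.256). Bcl2l12 had 381.6 and 434.9 in spleen KI, 289.1 in spleen Tg, and 255.3 and 297.3 in spleen Wt, a KI minus Wt difference of 0.56 ± 0.18 that was not called (limma adjusted p = 0.0602). Bcl2l13 lay between 857.2 and 1056 in all 11 libraries.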
